A study of Mus musculus with 4 samples.

Results

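The Prdm genes encode zinc finger proteins with a PR domain, a relative of the SET domain of histone methyltransferases. The genes described here are Prdm1, Prdm2, Prdm4, Prdm6, Prdm8, Prdm10 and Prdm16. They are 7 of the 18193 genes with a named probe set, and all 14 probe sets annotated to them are given. The members were chosen by measured values, namely for the large Prdm8 difference between a tumorigenic and a nontumorigenic cell line, so that difference and those of the other members are described without a test.

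PRDM proteins act on transcription by binding DNA through their zinc fingers and by bringing in corepressors and histone-modifying enzymes such as Ehmt2, histone deacetylases and Prmt5. Several are regulators of cell fate. In the nervous system Prdm8 works with the bHLH factor Bhlhe22 to repress genes such as Cdh11 in neurons, and Prdm16 is known for its role in neural stem cells as well as in brown fat.

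The data are 4 oligonucleotide arrays, each hybridised with RNA of 1 sample, 2 of them GIC and 2 non-GIC. All samples came from neural stem cells of the telencephalon of p53-/- C57BL/6 embryos at embryonic day 14.5, which were grown as floating spheres. All carried pCMS-EGFP-HRasL61, a plasmid for EGFP and an activated HRas, together with pBabe-neo, and were selected with neomycin and sorted for GFP. GIC is the tumorigenic subline, called glioma initiating cell-like, and non-GIC is the nontumorigenic subline. The labels do not say whether a subline is a single clone, which promoter drives HRas, or whether separate cultures gave the 2 arrays of each subline. Any p-value here thus reflects just the sample-to-sample spread, possibly technical, and tumorigenicity cannot be told apart from any other difference between the sublines.

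The deposited values are log2 signals, with array medians of 6.58 to 6.63. Genes entered the test if 2 or more arrays exceeded 5.97, here called the filter level, which is the 40th percentile over the whole table. Of 13366 genes tested with limma, 257 (1.92%) passed an adjusted p of 0.05, with 1.23% higher and 0.688% lower in GIC. The markers of the labelled cell type were mixed. Of 11 neural stem and progenitor genes with a probe set, 7 lay above the filter level on all arrays, among them Sox2, Pax6 and Vim, while Sox1, Olig2 and Prom1 lay below it on every array. Nes fell by 2.07 on the log2 scale in GIC (limma adjusted p = 0.0459). Fabp7 was lower in GIC by 1.51, given without a p-value because it passed the filter through the non-GIC arrays alone. Fabp7 had the same low value, 5.23, on both GIC arrays. The other 6 tested genes of that list did not pass.

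Promoter sequence was looked up for the members and for Fgf5 and A730035I17Rik, which lie by Prdm8, to show where they start. RefSeq windows of 300 bases (GRCm38.p6, 250 bases before to 50 after an annotated start) were used for 5 of the 7 members, Prdm1, Prdm4, Prdm8, Prdm10 and Prdm16. The windows of Prdm8 (chr5:98180619-98180918, plus strand) and of Fgf5 (chr5:98253934-98254233, plus strand), a growth factor gene that neighbours Prdm8, are shown because both transcripts were far higher in GIC. That of Prdm1 (chr10:44458699-44458998, minus strand) belongs to the member with the next largest difference. Capitals mark matches, on either strand, to 4 motifs that do not overlap here.
Prdm8: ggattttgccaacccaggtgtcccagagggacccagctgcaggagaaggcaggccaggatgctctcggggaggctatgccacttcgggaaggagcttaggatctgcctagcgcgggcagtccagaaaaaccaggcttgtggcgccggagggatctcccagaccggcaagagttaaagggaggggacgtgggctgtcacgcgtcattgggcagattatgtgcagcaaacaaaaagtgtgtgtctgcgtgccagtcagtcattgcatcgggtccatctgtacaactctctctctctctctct
Fgf5: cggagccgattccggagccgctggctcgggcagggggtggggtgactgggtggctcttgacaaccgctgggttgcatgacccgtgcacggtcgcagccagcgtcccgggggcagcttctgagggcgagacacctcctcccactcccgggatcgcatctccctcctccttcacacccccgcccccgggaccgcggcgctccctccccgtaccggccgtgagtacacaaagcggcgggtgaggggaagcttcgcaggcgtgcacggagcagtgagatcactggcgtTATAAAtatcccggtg
Prdm1: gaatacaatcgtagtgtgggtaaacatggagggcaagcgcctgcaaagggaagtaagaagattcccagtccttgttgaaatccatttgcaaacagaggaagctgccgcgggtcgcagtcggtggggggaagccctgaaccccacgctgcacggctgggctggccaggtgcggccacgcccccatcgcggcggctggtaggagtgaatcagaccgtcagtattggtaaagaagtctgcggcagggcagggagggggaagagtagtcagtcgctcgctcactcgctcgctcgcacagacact

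The motifs searched were the AP-1 site TGACTCA, the E-box CATATG, which Bhlhe22 among other bHLH factors binds, the ETS site CCGGAAGT and the TATA box TATAAA. The Fgf5 window held 1 TATAAA, starting at base 285 of the window and so past the annotated start. TATAAA was found in 13.6% of 32851 windows of the same length. One window of Prdm10 held CATATG and TATAAA. None of the 4 motifs was in the Prdm8 or the Prdm1 window. AP-1 letters are in 5.2% of all windows, CATATG in 3.91% and the ETS letters in 3.89%. A match is a description of letters and not a binding site. The GC content of the windows was 57.7% for Prdm8, 68.3% for Fgf5 and 59.7% for Prdm1, against a median of 52.67% over all windows. CpG pairs numbered 12 for Prdm8, 29 for Fgf5 and 20 for Prdm1, against a median of 7.

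Prdm8 differed most among the members. Its single probe set had log2 signals of 4.82 and 5.76 in the non-GIC pair against 9.49 and 10.15 in the GIC pair. Both non-GIC arrays lay under the filter level and both GIC arrays far above it, and the groups did not overlap. The GIC mean was 9.82 ± 0.47 and the non-GIC mean 5.29 ± 0.66 (SD, n = 2), a difference of 4.53 on the log2 scale. As the non-GIC signals are not known to be above background, this size and its rank depend on the low values, and no fold is given. The closest pair of arrays from different sublines was 3.73 apart and the farthest 5.33. Only 15 of the tested genes had a larger rise.

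Prdm8 was also uneven between arrays of the same subline. The non-GIC arrays were 0.94 apart, a gap exceeded by 3.4% of tested genes, and the GIC arrays 0.66 apart, exceeded by 10.8%. The difference was lowest, at 4.06, with non-GIC replicate 1 left out and highest, at 4.99, with non-GIC replicate 2 left out. Detection calls were not used here, so the transcript is not called absent in non-GIC.

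Prdm1, also known as Blimp1, drives plasma cell differentiation and the specification of primordial germ cells. It had the next largest difference of the members. Its probe set had 5.17 and 5.32 in the non-GIC pair against 6.22 and 6.30 in the GIC pair. The non-GIC arrays lay under the filter level and the GIC arrays just above it, with no overlap. The GIC mean was 6.26 ± 0.06 and the non-GIC mean 5.25 ± 0.11 (SD, n = 2), a difference of 1.01 on the log2 scale. Replicates were close, with gaps of 0.15 in non-GIC and 0.08 in GIC, and 570 tested genes had a larger rise.

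**Figure D1:**
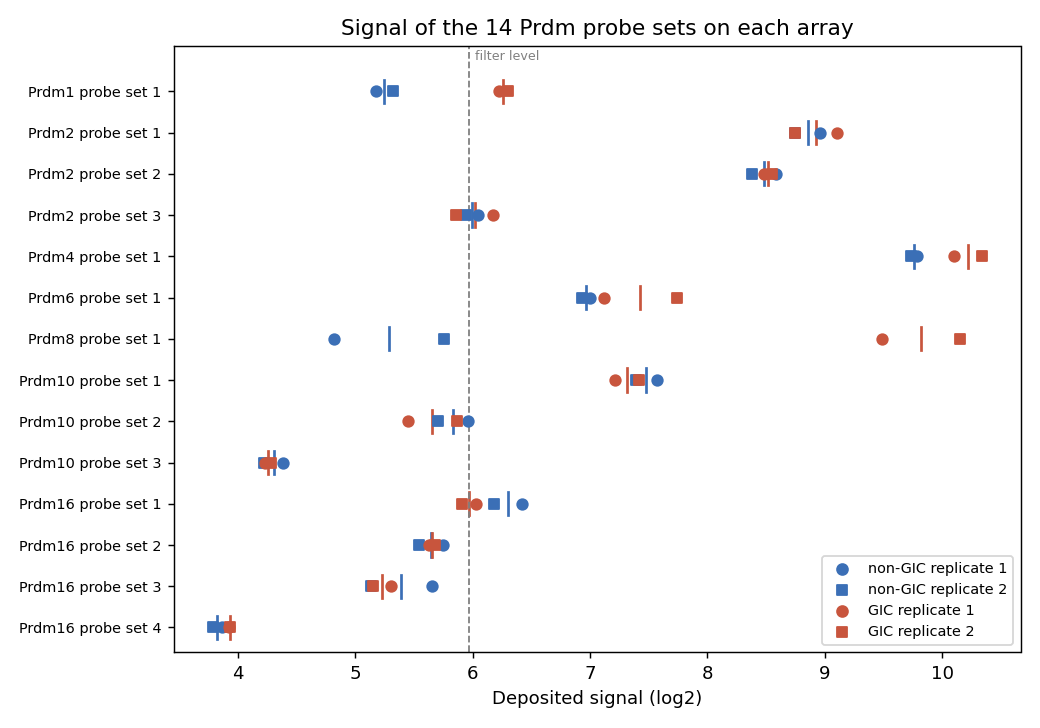
Deposited log2 signal (horizontal axis) of each of the 14 Prdm probe sets on the 2 non-GIC (blue) and 2 GIC arrays (red). Circles are replicate 1, squares replicate 2, short vertical lines group means, and the dashed line is the filter level of 5.97. Prdm8 is the only probe set of these whose groups are more than 3 log2 units apart, at 4.82 and 5.76 against 9.49 and 10.15.

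Prdm4 and Prdm6 had smaller differences in the same direction. Prdm4 binds the p75 neurotrophin receptor and recruits Prmt5 in neural stem cells. It had 9.79 and 9.73 in the non-GIC pair against 10.10 and 10.34 in the GIC pair, all well above the filter level. The groups did not overlap, and the means differed by 0.46. Prdm6, a repressor in smooth muscle precursors, had 6.998 and 6.94 in the non-GIC pair against 7.12 and 7.74 in the GIC pair. The groups were separate by 0.12 only, and the difference of 0.46 rested on GIC replicate 2, being 0.15 without that array and 0.78 without GIC replicate 1. The gap between the GIC arrays, 0.63, was larger than the difference of the means.

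Prdm2, a histone methyltransferase that binds the retinoblastoma protein, had 3 probe sets, and the groups overlapped in each. The one with the highest signal had 8.96 and 8.75 in the non-GIC pair against 9.10 and 8.74 in the GIC pair. The other probe sets lay at 8.38 to 8.59 and at 5.86 to 6.18 over the 4 arrays. Differences of the means were 0.07, 0.04 and 0.02 on the log2 scale, each smaller than the pooled SD of its probe set (0.21, 0.11 and 0.17).

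Prdm10, a transcriptional activator of the folliculin gene Flcn, likewise overlapped between groups in all of its 3 probe sets. The highest had 7.57 and 7.39 in the non-GIC pair against 7.22 and 7.42 in the GIC pair, a difference of -0.16 with a pooled SD of 0.14. Leaving out replicate 1 of GIC brought it to -0.06, and leaving out replicate 1 of non-GIC to -0.07. The remaining ones had differences of -0.17 and -0.05 and lay under the filter level on every array.

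Prdm16 was the only member whose leading probe set was lower in GIC without overlap. That probe set had 6.42 and 6.18 in the non-GIC pair against 6.03 and 5.91 in the GIC pair, all close to the filter level, with a difference of -0.33. The direction was not shared by all of its probe sets. The other ones, under the filter level on every array, had differences of 0.01, -0.17 and 0.10, and the mean over all 4 probe sets gave -0.10.

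Over all 14 probe sets, the groups did not overlap in 6. GIC was above non-GIC in 5 of them and below it in 1. Among all 34945 probe sets with 1 gene symbol the groups did not overlap in 46.8%, with 22.0% higher and 24.8% lower. A difference of at least 1 log2 unit without overlap was found in 2 of the 14, Prdm8 and Prdm1, against 4.52% of all probe sets. All 7 members passed the level filter, but Prdm8 and Prdm1 passed through the GIC arrays alone. No limma result is given for the members, since the contrast chose the group. The median difference was 0.46 over the members, the chosen Prdm8 among them, and -0.01 over all tested genes. Nothing is read from these counts or this median for the same reason.

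**Figure D2:**
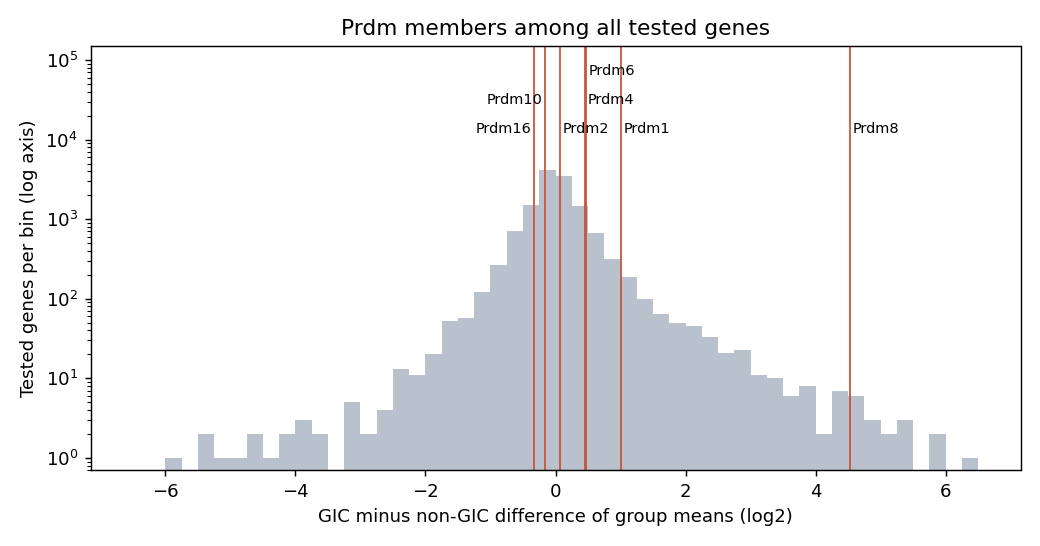
Histogram of the GIC minus non-GIC difference of group means (log2, horizontal axis) over the 13366 tested genes, with the number of genes per bin on a log axis. Red lines mark the 7 members, each by its probe set with the highest mean. Prdm8, at 4.53, lies in the sparse upper tail, Prdm1 lies at 1.01, and the other members lie between -0.33 and 0.46.

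The gene nearest to Prdm8 in pattern was also its neighbour on chromosome 5. Likeness was the root mean square distance between the log2 deviations of 2 genes from their own means over the 4 arrays, taken over 13365 other tested genes. Fgf5, which encodes a secreted fibroblast growth factor and signals through FGF receptors, had the smallest distance, 0.23. It had 4.98 and 5.63 in the non-GIC pair against 9.17 and 10.40 in the GIC pair. As for Prdm8, non-GIC replicate 1 was the lowest array, GIC replicate 2 the highest, and the non-GIC arrays lay under the filter level.

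The other 4 nearest genes were Sprr1a, a cornified envelope protein (distance 0.23), the kinase Ripk4 (0.24), the transcription factor Runx3 (0.27) and the ribosomal S6 kinase Rps6ka6 (0.33). Their differences were 4.38, 4.54, 4.72 and 5.00. Ripk4, Runx3 and Rps6ka6 lay under the filter level on both non-GIC arrays, so the size of their differences depends on low values. Sprr1a had 7.38 and 8.94 in the non-GIC pair. For Prdm1 the nearest genes were the calcium channel Trpv4 (distance 0.01), Gm2137 (0.03), the peptide hormone gene Apln (0.04), Fam184a (0.05) and the p97 cofactor Nsfl1c (0.05), with differences of 0.95 to 0.997. Likeness over 4 arrays is a description, and a gene with a similar difference and similar replicate gaps is near by construction.

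**Figure D3:**
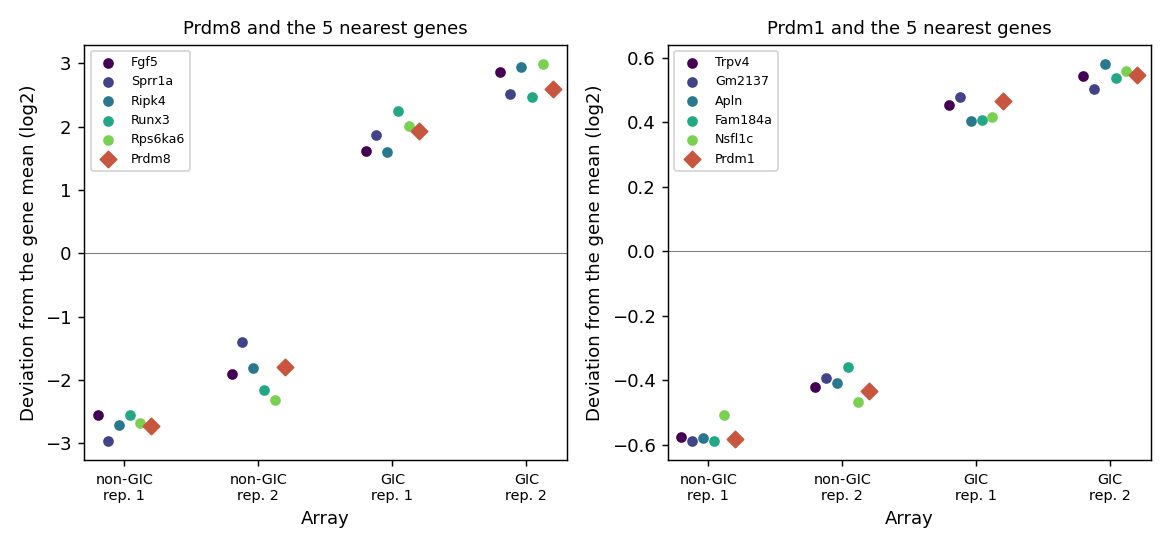
Deviation from the mean of each gene over the 4 arrays (log2, vertical axis) by array, for Prdm8 and its 5 nearest genes (left) and for Prdm1 and its 5 nearest genes (right). Diamonds are the Prdm gene and circles the others. Non-GIC arrays lie below 0 and GIC arrays above 0 for every gene shown, and the scale of the left panel is several times that of the right.

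The genes around Prdm8 were then examined by position, using the 5 genes with a probe set on each side in the order of the GRCm38.p6 gene table. Of these 10 neighbours 6 passed the level filter, and 2 of the 6 were past the limma threshold, Fgf5 and the long noncoding RNA A730035I17Rik, where 1.23% of all tested genes rose. Both passed the filter through the GIC arrays alone, and A730035I17Rik overlaps Prdm8 itself, so nothing is read from this count. Fgf5 entered this account with its likeness to Prdm8 known.

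Fgf5 had a GIC mean of 9.78 ± 0.87 and a non-GIC mean of 5.31 ± 0.46 (SD, n = 2), a rise of 4.48 on the log2 scale (SE 0.47). The rise is given without a p-value, as Fgf5 passed the filter through the GIC arrays alone and its likeness to Prdm8 was known. The non-GIC signals of Fgf5 are not known to be above background, so no fold is given. Another Fgf5 probe set, of a kind that can bind several transcripts, had 5.92 and 5.99 in the non-GIC pair against 7.49 and 8.60 in the GIC pair, a difference of 2.09. The groups did not overlap in either probe set. Leaving out a GIC array gave a rise of 3.86 or 5.10. The call was lost when non-GIC replicate 1 was left out (4.15, limma adjusted p = 0.153) and when non-GIC replicate 2 was (limma adjusted p = 0.108).

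A730035I17Rik lies inside the span of Prdm8 in the gene table, on the opposite strand. It had 5.47 and 5.36 in the non-GIC pair against 6.65 and 6.99 in the GIC pair, so it passed the filter through the GIC arrays alone. The rise was 1.40 on the log2 scale (SE 0.15), given without a p-value for that reason. With 1 array left out it was lowest, at 1.24, without GIC replicate 2 and highest, at 1.57, without GIC replicate 1. This transcript overlaps Prdm8 but has its own probe set. Whether that probe set also takes up Prdm8 signal was not tested.

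On the other side of Prdm8, the next gene with a probe set was Antxr2, a receptor for extracellular matrix proteins and for anthrax toxin. It had 10.09 and 10.22 in the non-GIC pair against 10.94 and 10.92 in the GIC pair, a difference of 0.78 that did not pass (limma adjusted p = 0.11). Prkg2, a cGMP-dependent protein kinase, had 11.55 and 11.37 against 12.09 and 12.61, a difference of 0.89 (limma adjusted p = 0.155). Its other probe sets had differences of 0.92 and 0.83. Groups did not overlap for either gene.

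The kinase Bmp2k and the Golgi protein Paqr3, farther out, had differences of -0.25 and 0.06, and the other probe sets of Bmp2k had 0.05 and -0.10. Groups did not overlap in 5 of the 6 tested neighbours, against 50.4% of all tested genes. The median difference of the 6 was 0.83. Nothing is read from these values either, since the 6 include Fgf5 and A730035I17Rik, which passed the filter through the GIC arrays alone. The 4 neighbours that were not tested included Cfap299, which had 5.53 and 5.61 in the non-GIC pair against 5.82 and 6.61 in the GIC pair. The others were 4930467D21Rik, Gk2 and 1700010H22Rik, under the filter level on every array, with differences of 0.05, -0.29 and -0.11.

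**Figure D4:**
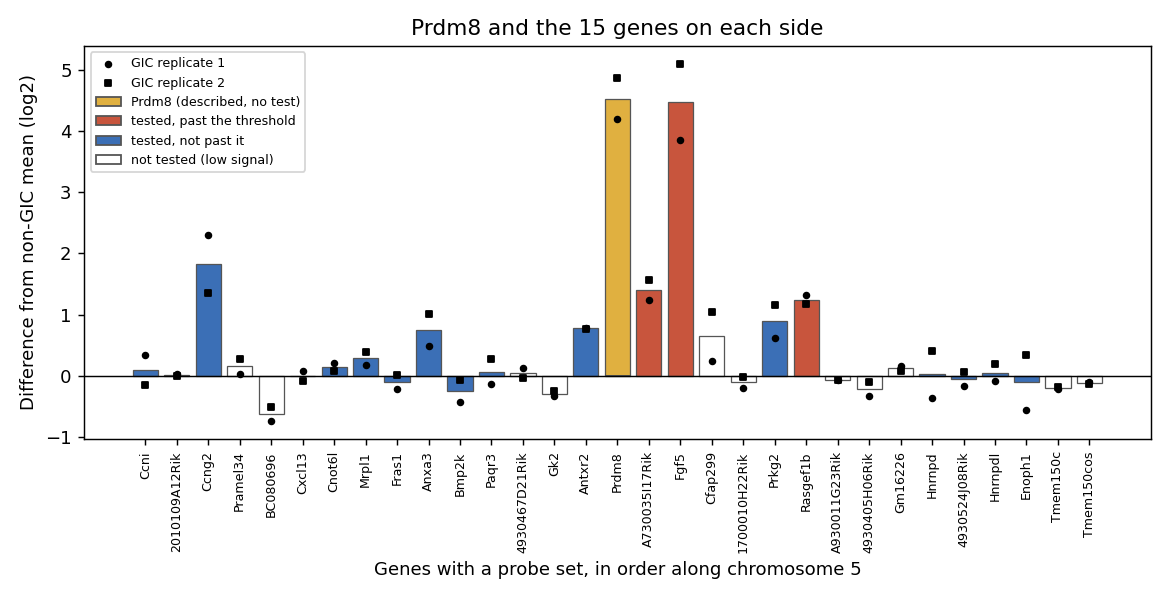
GIC minus non-GIC difference of group means (log2, vertical axis) for Prdm8 and the 15 genes with a probe set on each side, in gene order along chromosome 5. Bars are differences of means, and circles and squares are GIC replicates 1 and 2 relative to the non-GIC mean. Colours give the result of the limma test, except for Prdm8, which is described without a test. Nothing is read from the colours of Fgf5 and A730035I17Rik, since both passed the filter through the GIC arrays alone. Prdm8 at 4.53 and Fgf5 at 4.48 stand far above the other genes shown, the next highest being Ccng2 at 1.82 and A730035I17Rik at 1.40.

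Other genes of the PRDM family and of the pathways in which members act were taken from 7 lists, chosen with earlier results of these data known. Of 65 listed genes 60 had a probe set and 51 were tested. None rose and 5 fell past the limma threshold, where 1.23% of all tested genes rose and 0.688% fell. At an unadjusted p under 0.05 there were 14 of the 51, against 17.9% of all tested genes. The median difference was 0.02. The number that passed was 0 without non-GIC replicate 1 and 1 without any other array.

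Of the 10 other PRDM and Friend of GATA genes, 7 had a probe set and 5 were tested. Zfpm2, a zinc finger cofactor of GATA factors, fell by 1.69 on the log2 scale (SE 0.18, limma adjusted p = 0.032). It had 10.42 and 10.17 in the non-GIC pair against 8.55 and 8.67 in the GIC pair, and its other probe set had a difference of -0.93. The call was lost when any 1 array was left out, with limma adjusted p from 0.0657 to 0.169. Its paralogue Zfpm1 had a difference of -0.59, Prdm15 one of 0.30 and Prdm11 one of 0.02, none of which passed.

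Mecom, the PRDM gene also called Evi1 or Prdm3 and the closest relative of Prdm16, had 10.51 and 10.10 in the non-GIC pair against 11.62 and 11.21 in the GIC pair. The groups did not overlap, but the difference of 1.11 did not pass (limma adjusted p = 0.124). Its other probe sets had differences of 0.51 and 0.00. Prdm9 and Prdm14, which act in meiosis and in early germ cells, lay under the filter level on every array.

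Of 18 tested corepressors and chromatin enzymes only Tle4 passed. This Groucho-type corepressor had 8.65 and 8.52 in the non-GIC pair against 7.44 and 7.54 in the GIC pair, and fell by 1.10 on the log2 scale (limma adjusted p = 0.0481). The call was lost without any 1 array, with limma adjusted p from 0.101 to 0.205, and under most other settings given under processing, but not with median centring, with the crossed block or when multi-transcript probe sets were dropped. Its other probe sets had differences of -0.92 and -0.03. Its relatives Tle1, Tle2 and Tle3 had differences of 0.82, 1.66 and -0.04, none past the threshold. The histone methyltransferases Ehmt1 and Ehmt2, through which several PRDM proteins repress, had differences of 0.16 and -0.08. Hdac1 and Hdac2 had 0.26 and 0.28, and Prmt5 had -0.30. The list's median was 0.05.

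Genes linked to Prdm8 itself were few. The cadherin gene Cdh11, its repressed target in neurons, had 12.30 and 12.41 in the non-GIC pair against 12.66 and 11.48 in the GIC pair. The groups overlapped, with a difference of -0.29 (limma adjusted p = 0.767) that turned to 0.30 without GIC replicate 2. Its partner Bhlhe22 was not analysed here.

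None of the 8 tested genes linked to Prdm1 passed limma, and 1 had an unadjusted p under 0.05. They were led by the lymphoid repressor Bach2 (0.79, limma adjusted p = 0.254) and the germ cell gene Dppa3 (-0.16, limma adjusted p = 0.626), which is 0.01 without non-GIC replicate 1. Bach2 was 0.44 with non-GIC replicate 1 left out, but 1.15 with replicate 2 left out. Myc, a gene Prdm1 represses in plasma cells, had -0.44 and the secretory factor Xbp1 had 0.19. The list's median was 0.14.

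Of 9 tested genes linked to Prdm16 none passed limma either, and 3 had an unadjusted p under 0.05, where 17.9% of all tested genes did. The adipocyte regulator Pparg had 8.80 and 9.99 in the non-GIC pair against 7.58 and 8.00 in the GIC pair, a difference of -1.60 (limma adjusted p = 0.171). Without non-GIC replicate 2 it was -1.01. Cebpb, a partner of Prdm16, had 0.89 (limma adjusted p = 0.211), and 0.55 without GIC replicate 1. Ppargc1a, a coactivator of brown fat genes, had the largest difference of the list, 1.86 (limma adjusted p = 0.257). The brown fat genes Ucp1, Elovl3 and Ppara lay under the filter level on every array. The median was -0.05.

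The smooth muscle list, linked to Prdm6, held 3 of the 5 calls, which is 3 of its 7 tested genes where 0.688% of all tested genes fell. In this list the calponin Cnn1 fell by 4.03, the smooth muscle actin Acta2 by 1.71 and the actin nucleator leiomodin, Lmod1, fell by 1.34 on the log2 scale (limma adjusted p = 0.0363, 0.0348 and 0.0288). Lmod1 had 8.26 and 8.33 in the non-GIC pair against 6.92 and 6.98 in the GIC pair. Tagln had a difference of -1.24 without passing (limma adjusted p = 0.113), while Smtn, Des and Srf had -0.15, 0.04 and -0.02. Another Srf probe set had -0.67. The median was -1.24, against -0.01 over all tested genes. As the list was chosen with earlier results of these data known, nothing is read from its share of calls or its median.

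All 3 of these calls were lost with the replicate block (limma adjusted p from 0.0993 to 0.129). That of Cnn1 was lost without non-GIC replicate 1 or either GIC array, that of Acta2 without either non-GIC array and that of Lmod1 without any 1 array. A fit without 1 array has fewer arrays to test with, so a lost call there does not show that the difference rested on that array. The difference of Cnn1 was -3.35 when non-GIC replicate 1 was left out and -4.72 when replicate 2 was. With 1 array left out, that of Lmod1 lay between -1.31 and -1.38 and that of Acta2 between -1.46 and -1.97. The Acta2 probe set can bind several transcripts. Another one had 8.66 and 9.47 in non-GIC but 5.53 and 5.24 in GIC, a difference of -3.68. Myocd and Myh11, a coactivator and a myosin that define smooth muscle, lay under the filter level on every array. None of the 3 genes linked to Prdm4 and Prdm10 passed limma or had an unadjusted p under 0.05, with 0.37 for Flcn, 0.04 for the p75 receptor Ngfr and -0.08 for the cyclin Ccne1. Flcn was 0.24 without GIC replicate 1, and Ngfr lay between 0.01 and 0.08 with any 1 array left out.

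**Figure D5:**
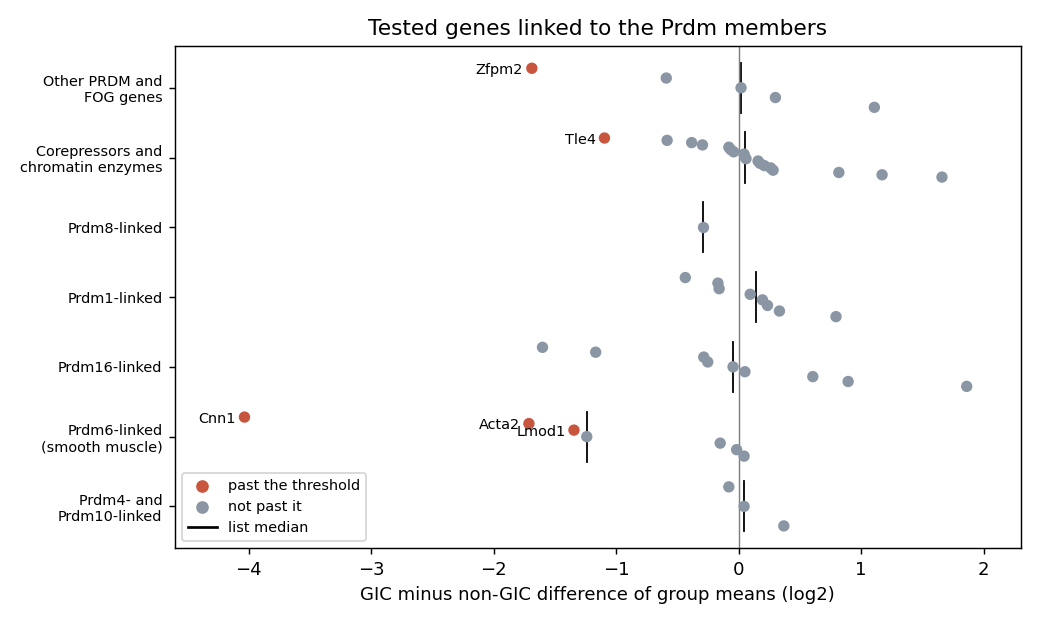
GIC minus non-GIC difference of group means (log2, horizontal axis) of each tested gene in the 7 lists linked to the Prdm members. Each point is a gene, red where it passed an adjusted p of 0.05 with limma, and black lines are list medians. The 5 genes past the threshold, Zfpm2, Tle4, Cnn1, Acta2 and Lmod1, are all lower in GIC.

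Markers of other cell types were also read, since neurons and mural cells express some of these genes. Of 4 tested neuron markers Map2 fell by 2.29 on the log2 scale (limma adjusted p = 0.019) and 3 did not pass. Of these, Tubb3 went the other way without overlap, with 7.98 and 9.56 in non-GIC but 9.77 and 10.06 in GIC. Its difference was 1.15 (limma adjusted p = 0.363), while Syp had -0.24 and Rbfox3 had 0.02. Mean signals of the neuron list were 6.92 and 6.89 in GIC, and 7.06 and 7.18 in non-GIC, with Dcx and Neurod1 under the filter level throughout. No astrocyte or oligodendrocyte gene (3 tested) and no mural, fibroblast, endothelial or leukocyte gene (3 tested) passed limma, and none had an unadjusted p under 0.05. Of the last list, Rgs5, Pecam1, Cdh5, Ptprc and Aif1 lay under the filter level on every array. Col1a1, a collagen gene, was uneven, with 13.84 and 14.57 in non-GIC but 13.59 and 10.70 in GIC. The part of such cells in the Prdm8 and smooth muscle values was not tested, and in bulk RNA fewer cells of a type and less RNA per cell cannot be told apart.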

How the data were processed

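The authors deposited 1 log2 signal per probe set and array for 45101 probe sets, made from 5 µg of total RNA labelled with biotin, per the labels' protocols. That base was inferred from the range of the numbers. How the arrays were background-corrected, summarised and normalized is not given in the sources used here. Of the probe sets, 34945 had 1 gene symbol in the platform annotation (34741 updated through the gene identifier to GRCm38.p6), 932 had several, 64 were controls and the rest were unnamed here. Each gene was represented by its probe set with the highest mean. Differences are GIC minus non-GIC. limma 3.58.1 in R 4.3.3 (lmFit, eBayes with trend, group as the only term, 2 residual and 2.72 prior degrees of freedom) was run on all tested genes, two-sided, with Benjamini-Hochberg adjustment, and was tested on simulated data. An exact permutation test of 2 against 2 arrays cannot go below p = 0.33.

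Named were all members, each called gene of a list or else the 2 genes with the smallest p, the 5 nearest in pattern and 5 neighbours on each side; further genes were named after their values were seen. The members and lists were chosen with earlier results of these data known. Alternatives changed the scaling (median centring or quantile normalization), the level filter (none, or the 60th percentile), the probe sets (their mean per gene, or without those binding several transcripts), eBayes (robust or without trend) and the design (a replicate block, or each array left out in turn). A lone array was taken to vary as the other subline does. A crossed block and the span of 15 genes on each side of Prdm8 were added after seeing the data. Plots used Python 3.11.15 and matplotlib 3.10.9. A few genes and 1 motif are not reported here.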

Additional observations from a re-analysis of the deposited data

How the results depend on the processing

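The difference of Prdm8 was 4.50 with median centring and 4.52 with quantile normalization, and 4.06 to 4.99 with 1 array left out. Leaving out 1 array cannot reverse groups that do not overlap. Nor can it move a difference by more than the pooled SD, so stability is not read from those runs. The replicate block and the probe set alternatives leave the difference of a gene with a single probe set unchanged by construction. Prdm1, Prdm4 and Prdm6, each with a single probe set and no overlap, kept their direction under both scalings and could not lose it otherwise. The leading probe set of Prdm2, whose groups overlap, changed sign with 1 array left out (-0.11 to 0.25). The 257 genes past the threshold became 12 to 188 with 1 array left out, and the 5 linked genes became 0 to 1. With 1 array left out, Cdh11 ranged from -0.88 to 0.30 and Dppa3 from -0.32 to 0.0051. The replicate numbers did not pair the samples (the correlation of same-numbered deviations was -0.32). With the replicate block 29 genes and 0 linked genes passed. In that fit Rasgef1b lost its call (limma adjusted p = 0.165). With the crossed block, chosen after seeing the data, 685 genes and 7 linked genes passed. The other scaling, filter, probe set and eBayes settings gave 4 or 5 linked genes. The number of arrays limits the precision, and no signal under the filter level is known to be above background.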

Other observations

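Beyond the nearest neighbours of Prdm8, the span was extended to 15 genes with a probe set on each side, a width chosen after the values were seen. Of the 30 other genes 19 were tested, and 3 of these rose and none fell past the limma threshold. Nothing is read from this count, since the width followed the values and the 3 include A730035I17Rik, which overlaps Prdm8. They were Fgf5, A730035I17Rik and Rasgef1b, an exchange factor for Rap GTPases, the 6th gene beyond Prdm8 on the side of Fgf5. Rasgef1b had 5.88 and 6.24 in the non-GIC pair against 7.38 and 7.23 in the GIC pair, a rise of 1.25 on the log2 scale (SE 0.17, limma adjusted p = 0.0482). Its call was lost without any 1 array (limma adjusted p from 0.0826 to 0.174), and with quantile normalization, median centring, no filter or eBayes without a trend it lay between 0.0514 and 0.0674. Ccng2, the cyclin G2 gene on the far side of Antxr2, had 8.77 and 9.63 in the non-GIC pair against 11.49 and 10.55 in the GIC pair, a difference of 1.82 that did not pass (limma adjusted p = 0.145). Several genes within the span differed little, among them Paqr3 at 0.06 and the RNA-binding protein genes Hnrnpd and Hnrnpdl at 0.03 and 0.05. The median difference of the tested genes in the span was 0.09, against -0.01 over all tested genes.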
